A study of Homo sapiens with 4 samples.

Results

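The array signals of NT5DC3, NAT1, DBI, NDRG1, ELL2 and HERC3 were higher with dihydrotestosterone (DHT) than with vehicle in 22Rv1 cells given a control siRNA and also in cells given an siRNA against OCT1. These 6 genes, of 17687 named genes on the array, were picked from these data as androgen-induced genes whose signal was higher with DHT under both siRNAs. Their DHT differences are therefore a description and carry no test. Each gene had 1 probe set, and all 6 passed the filter on dim genes, which kept the 8843 genes whose highest log2 value exceeded 6.51. The members were chosen as high in DHT, which is also how a gene passes that filter.

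The cells were 22Rv1, a human castration-resistant prostate cancer line that still contains the androgen receptor. They were kept for 3 days in medium with 2.5% charcoal-treated serum, which removes steroids, and were transfected 48 h before hormone treatment with siControl or with siOCT1, an siRNA against the octamer-binding transcription factor OCT1. They then received ethanol vehicle or 10 nM DHT for 24 h. The 4 groups were thus siControl with vehicle, siControl with DHT, siOCT1 with vehicle and siOCT1 with DHT, with 1 culture and 1 whole-transcript array each. With a single array per group, the differences carry neither a replicate check nor a p-value, and their precision is limited by that number. The level of the siRNA's own target was not analysed here, so siOCT1 stands for the transfection as labelled. The design asks how androgen-dependent expression changes once OCT1 is targeted.

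DHT is the potent form of testosterone. It binds the androgen receptor, which moves to the nucleus, binds DNA elements made of paired hexamers and recruits coactivators to nearby and distant genes. OCT1 binds an octamer sequence and is one of the factors that can sit beside the androgen receptor at its enhancers in prostate cancer cells. The 6 genes code for proteins of different kinds. ELL2 is an elongation factor that helps RNA polymerase II move along genes. HERC3 is a ubiquitin ligase of the HECT class. DBI, the acyl-CoA-binding protein, carries long-chain fatty acyl-CoA esters in the cytosol. NAT1 transfers acetyl groups to arylamines. NDRG1 is a stress-responsive cytoplasmic protein known to respond to androgen and to hypoxia. NT5DC3 carries a nucleotidase-like domain, and its function is poorly known.

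RefSeq promoter windows on GRCh38.p14 were matched for NT5DC3, DBI and HERC3. The 250 bases before the most upstream start of each gene are shown because the 3 genes share a response to one ligand and because OCT1 has a known letter pattern to look for. Bases are written 5′ to 3′ on the gene's strand, and capitals mark GC boxes (GGGCGG, on either strand). The NT5DC3 window is chr12:103841235-103841484 on the minus strand, the DBI window chr2:119366727-119366976 on the plus strand and the HERC3 window chr4:88523593-88523842 on the plus strand.
NT5DC3: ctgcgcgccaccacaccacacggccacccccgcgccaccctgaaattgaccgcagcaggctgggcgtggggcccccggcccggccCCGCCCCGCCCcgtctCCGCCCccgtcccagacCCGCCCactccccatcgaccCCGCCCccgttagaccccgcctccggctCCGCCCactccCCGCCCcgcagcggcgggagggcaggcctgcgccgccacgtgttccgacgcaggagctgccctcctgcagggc
DBI: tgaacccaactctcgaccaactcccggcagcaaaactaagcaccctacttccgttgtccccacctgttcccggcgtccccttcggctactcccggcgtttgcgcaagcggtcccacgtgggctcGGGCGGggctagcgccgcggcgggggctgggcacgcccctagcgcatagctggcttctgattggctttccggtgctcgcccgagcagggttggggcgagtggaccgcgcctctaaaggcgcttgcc
HERC3: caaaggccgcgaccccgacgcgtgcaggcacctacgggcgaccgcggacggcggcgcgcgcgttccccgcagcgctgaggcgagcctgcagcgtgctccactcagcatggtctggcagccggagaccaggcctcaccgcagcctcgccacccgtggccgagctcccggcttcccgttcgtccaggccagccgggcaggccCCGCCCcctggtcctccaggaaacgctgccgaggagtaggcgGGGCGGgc

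The windows held 79.2%, 67.6% and 75.6% G and C, against a median of 58.0% over 34788 promoter windows of the same length. GC boxes numbered 7 in NT5DC3, with 1 pair overlapping by a base, 1 in DBI and 2 in HERC3. A GC box occurred in 42.6% of all windows. None of the 3 windows, nor the windows of the other listed starts of DBI and HERC3, held the octamer ATGCAAAT (1.62% of all windows), the palindromic androgen response element (0.00287%), its 6-base arm AGAACA (12.4%), the forkhead letters TGTTTAC (2.98%) or the TATA box TATAAA (10.8%), each searched on both strands. No match means only that these letters are not in these windows.

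Values are log2 signals as deposited. The arrays had medians of 5.99 to 6.03 over all probe sets and correlated pairwise with r of 0.970 to 0.987 across probe sets. Background, set at the 95th percentile of 612 negative control probe sets on each array, was 6.62 and 6.99 for siControl with vehicle and DHT, and 7.39 and 6.91 for siOCT1 with vehicle and DHT. Of the 6 genes, 4 lay above background on every array, while NT5DC3 and NDRG1 lay below it on the siOCT1 vehicle array alone. Where the dimmer value of a pair was below its background, the fold is given as "at least", from the brighter value over that background. Luminal epithelial markers were present. FOXA1 stood at 14.06 to 14.50 and KRT8 at 13.36 to 15.72, while KLK3, which encodes prostate-specific antigen, lay near background at 5.51 to 7.53. The basal markers KRT5 and KRT14 and 7 of 8 stromal and immune markers were below background on every array, the exception being COL1A2, which read 6.63 on the siControl vehicle array against a background of 6.62.

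NT5DC3 showed one of the steepest DHT differences. Its signal was 8.19 with siControl and vehicle, 12.68 with siControl and DHT, 7.07 with siOCT1 and vehicle and 11.62 with siOCT1 and DHT. Both DHT arrays were high and both vehicle arrays low, and each siOCT1 array lay below the siControl array of the same ligand. The DHT difference was 4.49 under siControl, or 22.5-fold, and 4.55 under siOCT1. Because the siOCT1 vehicle value was below background, that second difference is at least 18.7-fold. The siOCT1 difference was -1.12 in vehicle (at least 1.74-fold lower) and -1.06 in DHT (2.09-fold lower). STAB2, which overlaps NT5DC3 in the RefSeq annotation, read 2.32 to 2.79, below background on all 4 arrays.

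DBI had the largest siOCT1 difference of the 6 genes and lay well above background throughout. Its signal was 11.07 with siControl and vehicle, 14.71 with siControl and DHT, 8.87 with siOCT1 and vehicle and 12.82 with siOCT1 and DHT. The order from low to high was siOCT1 vehicle, siControl vehicle, siOCT1 DHT and siControl DHT. The DHT difference was 3.64 under siControl (12.5-fold) and 3.95 under siOCT1 (15.5-fold). siOCT1 values were 4.62-fold lower in vehicle and 3.72-fold lower in DHT. DBI overlaps C2orf76 in the RefSeq annotation, and the probe positions were not analysed here. C2orf76 had smaller differences of the same signs, with DHT differences of 0.96 and 0.92 and siOCT1 differences of -0.81 in vehicle and -0.85 in DHT.

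NDRG1 followed the same layout at lower signal. It stood at 7.45 with siControl and vehicle, 10.72 with siControl and DHT, 6.13 with siOCT1 and vehicle and 9.89 with siOCT1 and DHT. The siOCT1 vehicle value was again the lowest and lay 1.27 below its array's background. The DHT difference was 3.27 under siControl (9.64-fold) and 3.76 under siOCT1, which background limits to at least 5.63-fold. siOCT1 values were 1.78-fold lower in DHT. In vehicle the deposited difference was -1.32, but only a fold of at least 1.04 can be stated.

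NAT1 and ELL2 formed a different layout, in which siOCT1 arrays were higher in vehicle and level with siControl in DHT. NAT1 stood at 6.80 with siControl and vehicle, 11.06 with siControl and DHT, 7.63 with siOCT1 and vehicle and 11.05 with siOCT1 and DHT. The DHT values differed by 0.01. In vehicle the siOCT1 array was higher by 0.84 (1.79-fold), with the values 0.18 and 0.24 above the backgrounds of their own arrays. The DHT difference was 4.26 under siControl (19.2-fold) and 3.42 under siOCT1 (10.7-fold). NAT2, the paralog next to NAT1, read 2.40 to 3.11, below background on all 4 arrays. Whether probes of either gene read the other was not tested.

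ELL2 was far above background on every array. Its signal was 12.82 with siControl and vehicle, 15.26 with siControl and DHT, 14.06 with siOCT1 and vehicle and 15.28 with siOCT1 and DHT. The siOCT1 vehicle array lay midway between the siControl pair, and the DHT arrays were 0.02 apart. The DHT difference was 2.44 under siControl (5.42-fold) and 1.23 under siOCT1 (2.34-fold). In vehicle siOCT1 was 2.35-fold higher. Values above 16 exist on these arrays, 327 to 379 per array. Whether the ELL2 probe set was near its own upper limit in DHT was not tested. ELL2 overlaps CAST in the annotation, and CAST had DHT differences of -0.30 and -0.61, opposite in sign to those of ELL2.

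HERC3 had the smallest DHT differences of the 6 genes. It stood at 7.75 with siControl and vehicle, 9.47 with siControl and DHT, 7.96 with siOCT1 and vehicle and 9.10 with siOCT1 and DHT. Both DHT arrays were above both vehicle arrays. The DHT difference was 1.72 under siControl (3.30-fold) and 1.15 under siOCT1 (2.21-fold). siOCT1 differences were 0.20 in vehicle and -0.37 in DHT, both within 1.5-fold. NAP1L5, a gene that overlaps HERC3, read 2.14 to 2.49 and was below background on every array.

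**Figure D1:**
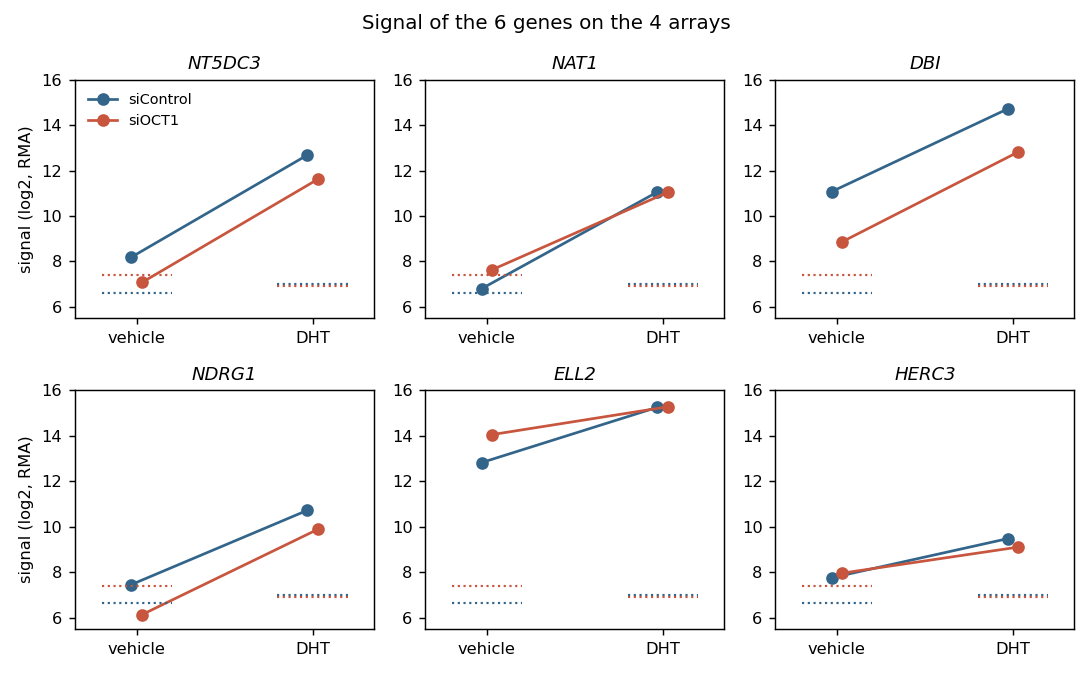
Log2 signal (RMA) of the 6 genes with vehicle and with DHT, in siControl cells (blue) and siOCT1 cells (red), 1 array per point; dotted lines mark the background of each array. As deposited, NT5DC3, DBI and NDRG1 run nearly in parallel with siOCT1 below siControl. The siOCT1 vehicle points of NT5DC3 and NDRG1 lie below background, so the slopes from them are uncertain. The lines of NAT1 and ELL2 meet in DHT, at 11.06 and 11.05 and at 15.26 and 15.28.

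Set among all genes, the DHT differences of the 6 ranged from 1.72 to 4.49 under siControl and from 1.15 to 4.55 under siOCT1. By the mean of both, NAT1 ranked 10, DBI 11, ELL2 81 and HERC3 133 of 8843 measured genes on the deposited values. No rank is given for NT5DC3 and NDRG1, whose siOCT1 vehicle values lay below background. All 6 were at least 1.5-fold higher with DHT under both siRNAs, as their selection required, while 4.86% of measured genes were. In siControl cells alone 15.8% of measured genes were higher by that fold, and in siOCT1 cells 14.1%. Negative control probe sets passed the same rule under both siRNAs in 7.68% of cases, so 1.5-fold is small against the noise of dim probe sets. The 6 genes include members far past it and HERC3 and ELL2 nearer to it.

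**Figure D2:**
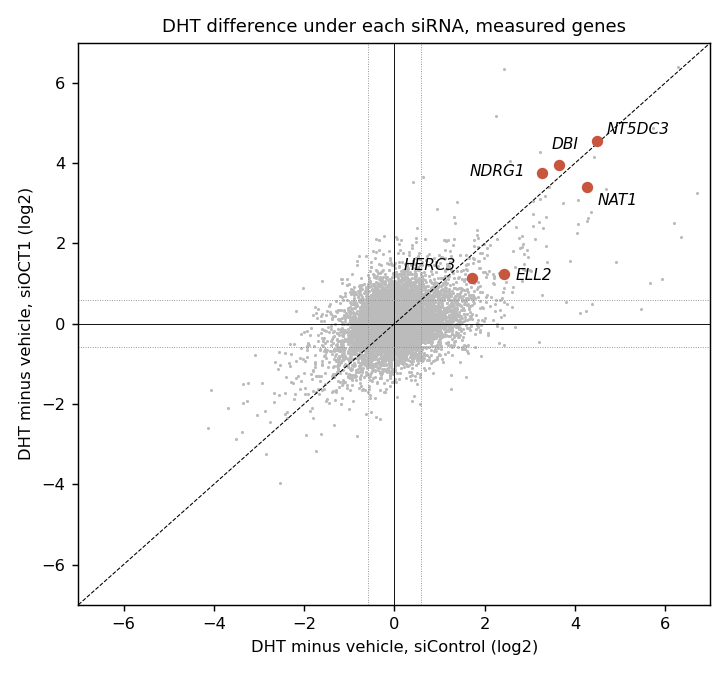
DHT minus vehicle (log2) in siControl cells (horizontal) against siOCT1 cells (vertical) for 8843 measured genes (grey) and the 6 genes (red); the dashed line marks equal differences and dotted lines 1.5-fold. As deposited, NT5DC3 lies on the dashed line at 4.49 and 4.55, DBI and NDRG1 above it, and NAT1, ELL2 and HERC3 below it. The siOCT1 vehicle values of NT5DC3 and NDRG1 lay below background. Their siOCT1 folds are therefore only at least 18.7 and at least 5.63, and their side of the line is not settled.

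The selection rule did not name the siOCT1 differences, but it is not independent of them: they read the same 4 arrays, and the gap between their values in DHT and in vehicle equals the gap between the DHT differences on which the genes were picked. NT5DC3, DBI and NDRG1 were at least 1.5-fold lower in siOCT1 in both ligand states by the deposited values, which makes 3 of 6, where 18.7% of measured genes were lower in both. For NDRG1 in vehicle this rests on a value below background. No member was higher in both ligand states, where 12.2% of measured genes were. In vehicle alone 3 of the 6 were lower and 2 higher, against 28.7% and 22.9% of measured genes. In DHT alone 3 were lower and 0 higher, against 26.0% and 18.9%. The layout of NAT1 and ELL2, higher in vehicle and within 1.5-fold in DHT, was shared by 10.0% of measured genes. For NAT1 the call in vehicle rests on values only 0.18 and 0.24 above background. With all values raised to the highest background, its siOCT1 difference in vehicle was 0.24, within 1.5-fold. With 6 genes and 1 array per group, these shares describe the arrays and were not tested.

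**Figure D3:**
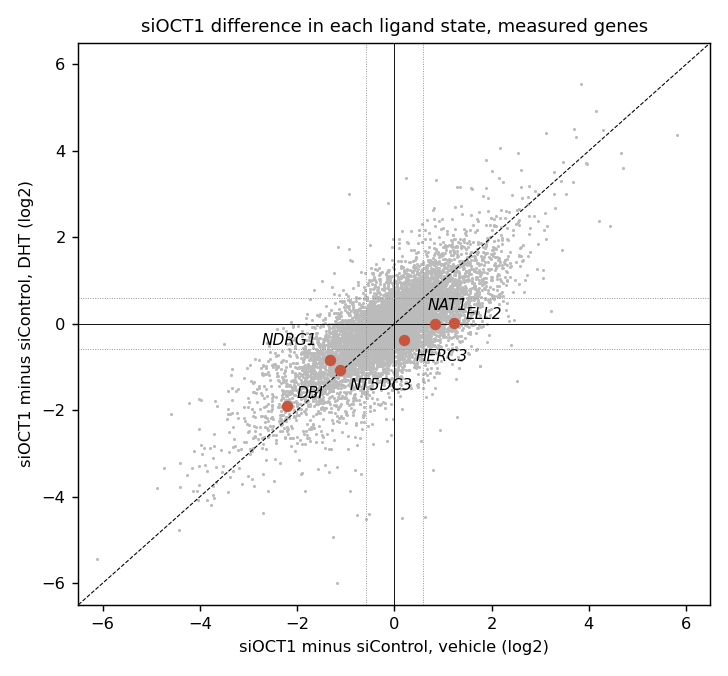
siOCT1 minus siControl (log2) in vehicle (horizontal) against DHT (vertical) for 8843 measured genes (grey) and the 6 genes (red); the dashed line marks equal differences and dotted lines 1.5-fold. DBI, NT5DC3 and NDRG1 sit in the lower left, with DBI at -2.21 and -1.90. NAT1 and ELL2 sit on the horizontal axis at 0.84 and 1.23. The siOCT1 vehicle values of NT5DC3 and NDRG1 lay below background, so their horizontal positions are as deposited.

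The change of the DHT difference, siOCT1 minus siControl, equals the siOCT1 difference in DHT minus that in vehicle. It was 0.05 for NT5DC3, 0.31 for DBI and 0.49 for NDRG1, all within 1.5-fold. It was -0.85 for NAT1 and -1.21 for ELL2, past 1.5-fold, and -0.58 for HERC3, a factor of 1.49 that stops just short of it. A negative change of at least 1.5-fold was thus seen in 2 of the 6 genes and in 18.0% of measured genes, and a positive one in 0 of the 6 and in 17.5%. The genes were picked on both parts of this value, so nothing is read from these counts. For NAT1 and ELL2 the arrays that differed were those with vehicle, since their DHT values under siControl and siOCT1 lay 0.01 and 0.02 apart. With all values raised to the highest background, 7.39, the change was -0.25 for NAT1 and -0.78 for NDRG1.

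A list of 89 other androgen-responsive genes, written from general knowledge of androgen targets, gave a wider frame. It was written with earlier results of these data known, so its shares are a description and not independent support. Of the 89 genes 80 were matched and 70 measured. Of the 70, 28 (40.0%) were at least 1.5-fold higher with DHT under both siRNAs, beside 4.86% of measured genes. The list's median DHT difference was 0.76 under siControl and 0.50 under siOCT1, against -0.03 and 0.02 over all measured genes. The solute carrier SLC45A3 was at least 32.1-fold and at least 28.2-fold higher with DHT, and RAB3B, a GTPase of vesicle release, differed by 4.42 and 4.16. ZBTB16, a zinc finger repressor, differed by 3.23 under siControl and was at least 16.9-fold higher under siOCT1. INPP4B, a lipid phosphatase, was at least 7.21-fold and at least 4.49-fold higher. In AKAP12, an anchor for protein kinase A, the siControl fold was at least 7.29, and neither siOCT1 value exceeded background.

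Some genes of the same list had lower values with DHT. CCND3 (cyclin D3) had DHT differences of -0.76 and -0.39 and RPS6KA3, a ribosomal S6 kinase gene, of -0.70 and -0.35. ADAMTS1, a secreted metalloprotease, stood at 0.01 and -1.13. GPD1L was at least 1.10-fold lower under siControl, with neither siOCT1 value above background, and CDC14B lay below background on every array. In all 2 of the 70 were lower by at least 1.5-fold under both siRNAs by the deposited values, beside 4.37% of measured genes. These were GPD1L and CDC14B, so both calls rest on values below background.

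With siOCT1, 20 of the 70 listed genes (28.6%) were lower in both ligand states, beside 18.7% of measured genes, and 5 (7.14%) were higher, beside 12.2%. The list's median siOCT1 difference was -0.07 in vehicle and -0.43 in DHT, against -0.06 and -0.07 over all measured genes. SELENOP, a plasma selenium carrier, was higher by 1.92 and 2.60, and the polyamine enzyme gene SAT1 by 1.95 in vehicle and 0.51 in DHT. In DHT, STEAP4 was at least 2.13-fold lower, AKAP12 at least 5.98-fold lower and the kallikrein gene KLK2 at least 2.75-fold lower. The layout of NAT1 and ELL2 occurred in 10 of the 70 genes (14.3%), beside 10.0% of measured genes. The DHT difference minus that of siControl was negative by at least 1.5-fold under siOCT1 in 27 (38.6%), beside 18.0%, and positive in 9 (12.9%), beside 17.5%. A negative value is not always a smaller response, since it also holds genes that were lower with DHT under siOCT1, such as ADAMTS1. DHT and siRNA differences share arrays here, so these counts are not independent of each other.

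**Figure D4:**
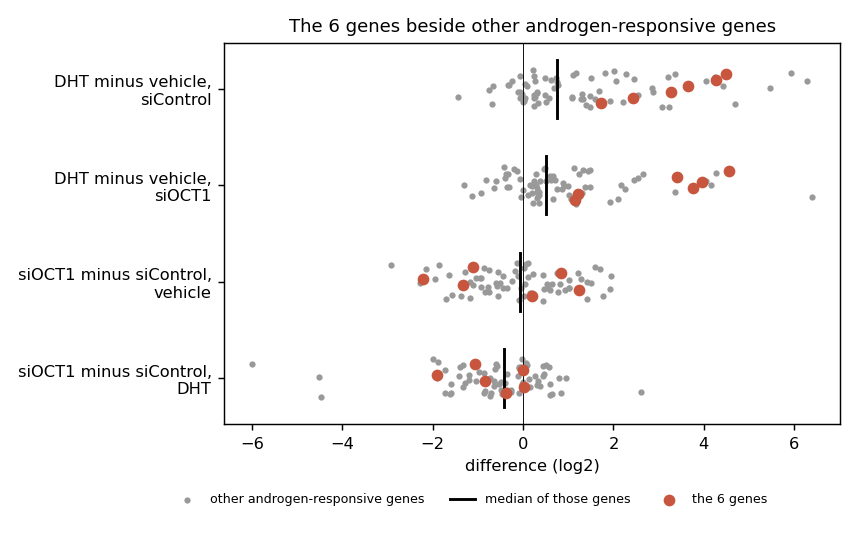
Log2 differences of 70 measured androgen-responsive genes (grey points, with vertical jitter), their median (black bars) and the 6 genes (red points) in each pair of arrays. The 6 genes lie right of the list medians of 0.76 and 0.50 for DHT, a position favoured by their selection on DHT differences. For siOCT1 in vehicle they range from -2.21 to 1.23.

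ELL2 acts in the super elongation complex, whose partners were all measured. Of 15 such genes 7 were at least 1.5-fold higher with DHT under siControl (46.7%, beside 15.8% of measured genes). Under siOCT1 2 were (13.3%, beside 14.1%), with 1 gene shared (6.67%, beside 4.86%). That gene was EAF2, an ELL-associated factor, at 4.17 and 6.85 under siControl and 4.64 and 7.04 under siOCT1. Only the last of these values exceeded background, so no fold is given for its DHT differences. ICE2, a subunit of the related little elongation complex, differed with DHT by 2.03 and 0.55, and the cyclin gene CCNT2 by 0.71 and 0.07. CCNT2 was also higher with siOCT1, by 1.42 in vehicle and 0.77 in DHT. ELL3 was lower with siOCT1 by 0.74 and 1.38, unlike its relative ELL2. Of the 15 genes 3 were higher and 1 lower with siOCT1 in both ligand states, where 12.2% of measured genes were higher and 18.7% lower.

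Among other proteins with an acyl-CoA-binding domain or acting with DBI, 6 of 7 were measured. ECI2, an enoyl-CoA isomerase with such a domain, was higher with DHT by 2.38 under siControl and 0.63 under siOCT1. It was the 1 gene of the 6 past 1.5-fold under both (16.7%, beside 4.86% of measured genes). With siOCT1 in DHT, 5 of the 6 were lower, beside 26.0% of measured genes, ECI2 by 1.43 and ACBD5 by 0.78. TSPO, the mitochondrial protein that DBI binds, was at least 1.40-fold lower there. ACBD7, the small relative of DBI, was level with background on the siControl vehicle array (6.62 for both) and below it on the other arrays. Its place among the 5 thus rests on values below background. For TSPO, whose siOCT1 value in DHT lay below background, the stated bound falls short of the 1.5-fold used for the count. In vehicle 1 of the 6 was lower by the deposited values, ACBD7, beside 28.7% of measured genes. No fold can be stated for ACBD7 in either ligand state. With vehicle ECI2 differed by 0.32 and ACBD5 by -0.44, while DBI was 4.62-fold lower.

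For NDRG1 the single measured family member was NDRG3, with DHT differences of -0.89 and -0.36 and siOCT1 differences of -0.96 and -0.43. Among 13 measured hypoxia-inducible genes 1 (7.69%) was at least 1.5-fold higher with DHT under both siRNAs, beside 4.86% of measured genes. It was LOX, an extracellular crosslinking enzyme, at 1.75 under siControl with both siOCT1 values below background. Of the 13, 8 (61.5%) were lower with siOCT1 in both ligand states, beside 18.7% of measured genes. The mitophagy receptor gene BNIP3 was lower by 2.59 and 2.24, and the kinase gene PDK1 at least 3.89-fold and at least 3.51-fold lower. ANKRD37 went the other way, at least 2.93-fold and at least 1.57-fold higher with siOCT1.

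Of 7 measured nucleotidase relatives of NT5DC3, 1 (14.3%) was at least 1.5-fold higher with DHT under both siRNAs, beside 4.86% of measured genes. It was NT5DC1, at 1.76 and 0.65, while NT5C was lower with siOCT1 by 1.53 and 1.84. NT5C2 was higher with siOCT1 by 0.91 and 0.79, and NT5C3A had DHT differences of 0.29 and 1.02. Of 8 N-acetyltransferase genes 3 were measured, and none was past 1.5-fold with DHT. Over all measured genes 15.8% were higher by that fold under siControl and 14.1% under siOCT1. NAT9 stood at 0.42 and 0.47, NAT10 at -0.11 and 0.33 and SAT2 at -0.13 and -0.15. HERC1, HERC2 and HERC4, the measured relatives of HERC3, had DHT differences of 0.29 and 0.05, of -0.31 and 0.17, and of 0.73 and 0.27. HERC5 and HERC6 were below background on all arrays.

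Genes with the nearest pattern were sought by the root mean square distance between mean-centred log2 values over the 4 arrays, 3 per gene. These came to 15 genes, of which NDRG1 and DBI are members, 6 belong to the androgen-responsive list and 6 lay below background on some array. That list holds 70 of the 8843 measured genes. The members were picked as higher with DHT, so their nearest patterns are too, and nothing is read from the overlap. NT5DC3, DBI and NDRG1 were close to one another, at distances of 0.51 to 0.61. NDRG1 was nearest to the monoamine oxidase gene MAOA (0.26), then to PMEPA1, an inhibitor of TGF-beta signalling (0.32), and C1orf21 (0.34). MAOA lay below background on both vehicle arrays, and C1orf21 and NDRG1 on the siOCT1 vehicle array, so these distances rest partly on such values. C1orf21 (0.41) and PMEPA1 (0.51) were also the nearest non-members to DBI. PMEPA1 had DHT differences of 2.55 and 4.06 and siOCT1 differences of -2.15 and -0.64. The amino acid transporter SLC38A4 was nearest to NT5DC3 (0.46), at least 8.30-fold and at least 1.49-fold higher with DHT.

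NAT1 was nearest to THSD7A (0.23), INPP4B (0.23) and RAB3B (0.27), of which the THSD7A and INPP4B vehicle values lay below background. ELL2 was nearest to TUT7, a uridylyltransferase (0.12), ABHD2, a lipase (0.13), and PIAS1, a SUMO ligase that binds the androgen receptor (0.15). These 3 genes were above background on all arrays and were higher with siOCT1 in vehicle, by 1.39, 1.01 and 1.41, with differences of -0.14, -0.27 and 0.33 in DHT. HERC3 was nearest to SRFBP1 (0.10), RAB4A (0.11) and ZBTB1 (0.12). Small distances come more easily to genes with small differences, so the distances of HERC3 and of NT5DC3 are not on an equal footing.

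**Figure D5:**
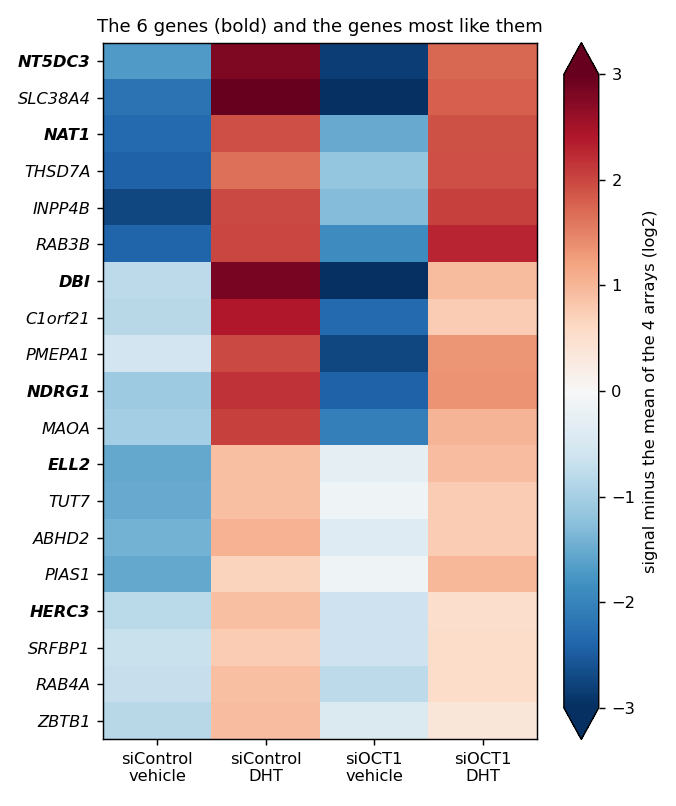
Signal minus each gene's mean over the 4 arrays (log2, colour limited to 3 either way) for the 6 genes (bold) and the genes nearest to them, 1 column per array. DBI, C1orf21, PMEPA1, NDRG1 and MAOA are lowest with siOCT1 and vehicle, where C1orf21, NDRG1 and MAOA lay below background. ELL2, TUT7, ABHD2 and PIAS1 are lowest with siControl and vehicle.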

How the data were processed

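RNA of 4 cultures was hybridised after whole-transcript labelling, a single array for each group (per the labels' protocols). The authors ran RMA in Expression Console, an Affymetrix program, according to the submitters' processing notes, and deposited log2 signals; versions and genome build are not given in the sources used here. This method gives all arrays a common distribution, which hides any global change in RNA content. That the base is 2 was inferred from the range. Of 24351 probe sets, 17709 carried a single symbol, giving 17687 genes, each read from its brightest probe set. Members and lists were chosen with earlier results of these data known. Differences were counted at 1.5-fold. No model was fitted, because the residual of an additive fit is the siRNA-by-ligand difference, and the members were picked on both DHT differences that form it. Genes named from lists were the extremes by mean difference (5 and 5 for DHT, 3 and 3 for siOCT1, up to 4 per smaller list). The GC and TATA boxes and the overlapping and adjacent genes were chosen after seeing the data. Counting and distance steps were tested on simulated data. Alternatives were a 2-fold rule, no filter or a stricter one, averaged probe sets, loess or positive-control centring, 32 added before log2, and a floor at the highest background. Python 3.11.15, numpy 2.4.6, pandas 2.3.3 and statsmodels 0.14.6 were used.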

Additional observations from a re-analysis of the deposited data

How the results depend on the processing

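Of 235 member values recomputed under 8 alternatives, 229 moved by less than 1.5-fold and 6 by more. Of the values past 1.5-fold as deposited, 0 changed sign. Many of the 229 were bound to stay. A changed fold rule, a changed filter or averaged probe sets cannot move the difference of a gene with 1 probe set. Only the centrings, the added 32 and the floor could. The 6 that moved by more were differences of NAT1 and NDRG1 with values raised to the highest background. There the NDRG1 change of the DHT difference, 0.49 as deposited, turned to -0.78, and the siOCT1 difference in vehicle became 0.24 for NAT1 and -0.06 for NDRG1. Members lower with siOCT1 in both ligand states were then NT5DC3 and DBI, as with a 2-fold rule. HERC3 did not pass the stricter filter, and its change of -0.58 became -0.79 with positive-control centring, which moved the median change of all genes by -0.21 and the median siOCT1 difference in vehicle by 0.22. With a 2-fold rule, the counts over measured genes were 161 higher with DHT under both siRNAs, 852 lower and 440 higher with siOCT1, and 9 lower and 1 higher among androgen-responsive genes. With the stricter filter they were 228, 924 and 591 over measured genes, a filter that leaves fewer genes. With 32 added before log2, 3 androgen-responsive genes were higher with siOCT1. No paired analysis was possible because each group has 1 array, and no replicate could be left out. Signal over background limits NDRG1, NT5DC3 and NAT1 in vehicle.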

Other observations

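The coding genes next to the 6 in RefSeq annotation order, 1 named on the array on each side, were read in the same way after the values of the 6 genes had been seen. Of these 12 neighbours 6 were measured. Among the 6, 1 was at least 1.5-fold higher with DHT under both siRNAs, where 4.86% of all measured genes were. This was C2orf76 (0.96 and 0.92), which overlaps DBI in the annotation, and the probe positions were not analysed. C2orf76 was also lower with siOCT1, by 0.81 in vehicle and 0.85 in DHT, so both differences had the sign seen in DBI. ST3GAL1, the sialyltransferase gene beside NDRG1, had DHT differences of -3.04 and -2.27 and siOCT1 differences of 0.89 and 1.66, each opposite in sign to that of NDRG1. GLRX, the glutaredoxin gene on one side of ELL2, had DHT differences of -0.05 and -0.01 while its siOCT1 differences were 1.10 in vehicle and 1.14 in DHT. ELL2 shared the first of these siOCT1 differences (1.23) and not the second (0.02). ASAH1, a ceramidase gene beside NAT1, stood at 0.56 and 0.68 with DHT. UQCC6, near NT5DC3, had DHT differences of -0.16 and 0.44. None of these differences was tested, since each group holds 1 array.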
